A study of Homo sapiens with 12 samples.

Results

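The 36 genes described here act in G2 and in mitosis, from the cyclin B kinase that starts cell division to the motors and proteases that part the chromosomes and the daughter cells. They were chosen by name. Each was represented by the probe set with the highest mean signal among those annotated with its symbol alone. All 36 were found among the 11963 genes named on the array, and all 36 were among the 7178 genes with enough signal to be tested.

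Entry into mitosis is driven by CDK1 bound to its cyclins, which is held back by the kinases WEE1 and PKMYT1 and released by the CDC25 phosphatases. Polo-like and Aurora kinases then build the spindle, the checkpoint proteins hold back the anaphase-promoting complex until the chromosomes are attached, and kinesins and their partners divide the cell. Most of these genes are transcribed late in the cell cycle, by the MuvB complex with B-MYB and by FOXM1, through CHR and CCAAT elements near the transcription start. RAF, MEK and ERK signalling is best known for acting earlier in the cycle, on cyclin D1 and the passage from G1 to S phase.

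Human melanoma cell lines (Malme3M, SkMel-28, SkMel-19, SkMel-5 and SkMel-1, 5 in all) were profiled on Affymetrix arrays. All 5 carry BRAF V600E, the mutation that keeps the BRAF kinase active. The lines grew in RPMI medium with serum and were harvested after 8 h in vehicle (DMSO, n = 5 lines), in PLX4032 at 250 nM (n = 5 lines) or in PLX4032 at 1000 nM (n = 2, SkMel-19 and Malme3M only). PLX4032, or vemurafenib, is an inhibitor of RAF kinases, and the comparison asks how transcript levels responded to RAF inhibition. Each line had 1 array per dose, so in the comparisons of doses the replicates are cell lines. The p-values at 250 nM in 5 lines measure the spread of the response among these lines. For SkMel-19 and Malme3M, DMSO and both doses were fitted together with 1 error. That error pools the spread at both doses, so p-values from that fit do not measure the spread of the 1000 nM response alone. RNA came from whole cultures: more cells in G2 or mitosis and more RNA of these genes per cell cannot be told apart.

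The arrays were alike in scale, with median signals of 102.5 to 130.4 over all probe sets. All 9 measured markers of the melanocyte lineage passed the filter on low signal, and 7 of them did so on every array. Of the fibroblast, blood and epithelial markers, 2 of 9, 1 of 5 and 2 of 7 passed the filter, and 2, 0 and 1 did so on every array. Summed signal over the arrays ran from 633.5 to 2078 for the fibroblast, 160.2 to 2403.3 for the blood and 573.5 to 5268.1 for the epithelial markers. For the melanocyte markers it ran from 35753.4 to 67769.5. As a sign of RNA integrity, control signal at the 3′ end over that at the 5′ end changed by -0.01 for GAPDH and -0.02 for ACTB on the log2 scale (250 nM minus DMSO, SD 0.07 and 0.08, n = 5 lines, exact two-sided sign-flip p = 0.875 and 0.625, in a design of 5 pairs that cannot reach 0.05). DUSP6, a phosphatase gene transcribed in response to ERK and so a sign that the inhibitor acted, fell by 5.04 on the log2 scale at 250 nM (limma adjusted p = 0.000679), with line values from -7.09 in Malme3M to -2.01 in SkMel-5. Signals of the 36 genes lay between 135.4 and 7958, all above the filter level of 85.7.

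At 250 nM PLX4032, 15 of the 36 G2/M and mitosis genes passed the test as higher than in DMSO and 2 as lower, while 19 did not pass (limma with cell line as a block, Benjamini-Hochberg adjusted p under 0.05 over all 7178 genes). That is 41.7% higher and 5.56% lower, beside 15.2% higher and 13.1% lower (28.3% in all) of the genes tested. The changes were small. The largest was 1.67-fold, the median absolute change was 0.20 on the log2 scale (1.15-fold), and KIF20A and CDC25C were the only 2 of the 36 to reach an absolute log2 change of 0.5, which 12.8% of all genes did. The median log2 change was 0.14 over the 36 genes and 0.03 over all genes. Counted by line, 17 of the 36 (47.2%) were higher at 250 nM in all 5 lines, beside 20.9% of all genes, and 3 (8.33%; UBE2C, CKS2 and MAD2L1) were lower in all 5, beside 16.6%. For none of the 36 did the 5 signals at 250 nM clear the 5 in DMSO, which occurred upward in 0.543% and downward in 1.31% of all genes.

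**Figure D1:**
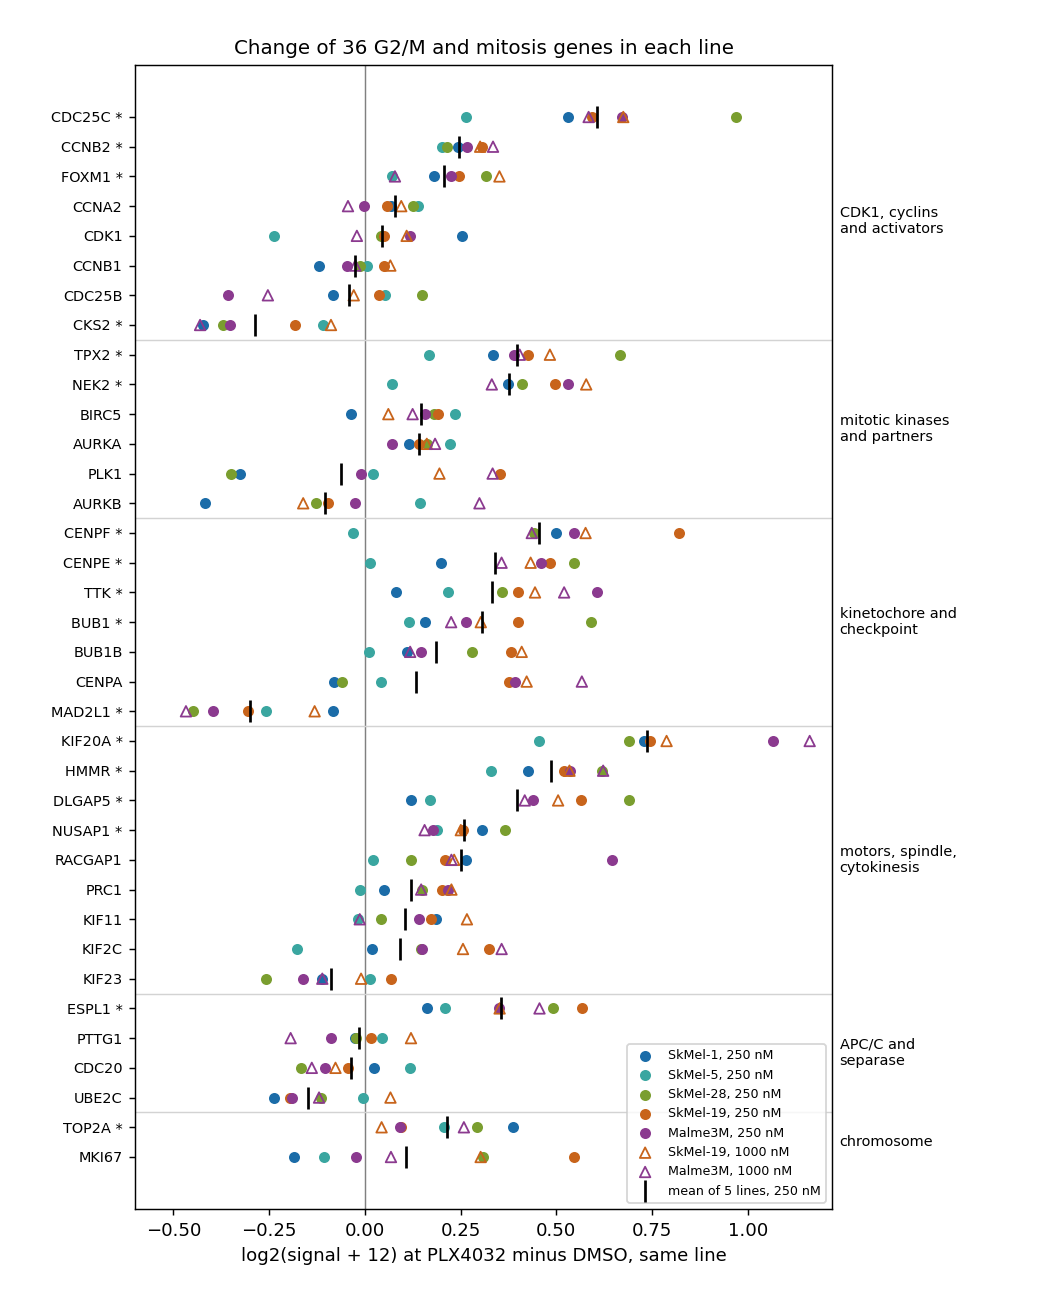
Log2 change of each of the 36 genes (down the page, by role) in each cell line at 250 nM PLX4032 (circles) and, for SkMel-19 and Malme3M, at 1000 nM (triangles), each against DMSO of the same line. A bar marks the mean of the 5 lines at 250 nM, and a star marks genes that passed the limma test there. KIF20A lies highest in mean, with line values from 0.45 to 1.07 at 250 nM, while CKS2 and MAD2L1 lie below 0 in all 5 lines.

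The CDK1 engine itself, meaning the kinase, its cyclins and the proteins that switch it on, changed in part: 3 of these 8 genes passed as higher, 1 as lower and 4 did not pass. Of all genes tested, 15.2% passed as higher and 13.1% as lower, and no count by role or list was tested against these shares. CDK1, the kinase that drives entry into mitosis, had signals of 5664 in SkMel-1, 1483 in SkMel-5, 2079 in SkMel-28, 4463 in SkMel-19 and 3438 in Malme3M at 250 nM, against 4749, 1749, 2019, 4315 and 3167 in DMSO in the same lines. Its signal was higher in 4 lines and lower in SkMel-5, and the groups overlapped almost entirely (log2 change 0.05, SE 0.07, n = 5 lines, limma adjusted p = 0.676). CCNB1, the cyclin B1 subunit of that kinase, had signals of 2691 in SkMel-1, 3306 in SkMel-5, 3488 in SkMel-28, 3951 in SkMel-19 and 1609.6 in Malme3M at 250 nM, against 2928, 3295, 3521, 3815 and 1664 in DMSO in the same lines. No line moved far, 2 were higher and 3 lower, and the ranges of the groups nearly coincided (log2 change -0.03, SE 0.06, n = 5 lines, limma adjusted p = 0.76). CCNA2, the cyclin A2 subunit, had a log2 change of 0.08 (limma adjusted p = 0.422), whereas CCNB2, the cyclin B2 subunit, had a higher log2 level by 0.25 (SE 0.06, limma adjusted p = 0.0141) with line values between 0.20 and 0.31.

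CDC25C, a phosphatase that removes the inhibitory phosphates from CDK1, rose. Its signals were 397 in SkMel-1, 354 in SkMel-5, 589.8 in SkMel-28, 385 in SkMel-19 and 223 in Malme3M at 250 nM, against 271, 293, 295, 251 and 135 in DMSO in the same lines. All 5 lines were higher with inhibitor, SkMel-28 most and SkMel-5 least, and Malme3M at 250 nM lay within the DMSO range (log2 change 0.61, SE 0.11, n = 5 lines, limma adjusted p = 0.00554). CDC25C was also the dimmest of the 36 genes. CDC25B, the related phosphatase, had signals of 799 in SkMel-1, 3639.6 in SkMel-5, 4109.5 in SkMel-28, 4260.2 in SkMel-19 and 2050.2 in Malme3M at 250 nM, against 847, 3509.5, 3708, 4153 and 2629 in DMSO in the same lines. It was lower in Malme3M and SkMel-1 and a little higher in the other 3 lines, and SkMel-1 stood far below the rest at either dose (log2 change -0.04, SE 0.08, n = 5 lines, limma adjusted p = 0.729).

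FOXM1, the transcription factor of many of these genes, had signals of 3235 in SkMel-1, 947 in SkMel-5, 779 in SkMel-28, 1786 in SkMel-19 and 2136 in Malme3M at 250 nM, against 2852, 902, 623, 1505 and 1827 in DMSO in the same lines. Each line was slightly higher with inhibitor, though the groups overlapped across a wide range of levels, highest in SkMel-1 (log2 change 0.21, SE 0.07, n = 5 lines, limma adjusted p = 0.0483). The call is near the threshold. CKS2, the small subunit that binds CDK1 and helps it act on its substrates, went the other way. Its signals were 2533 in SkMel-1, 5409 in SkMel-5, 3795 in SkMel-28, 3828 in SkMel-19 and 3206 in Malme3M at 250 nM, against 3399.7, 5839, 4914, 4346 and 4099.6 in DMSO in the same lines. All 5 lines were lower at 250 nM, most in SkMel-1, and the groups overlapped (log2 change -0.29, SE 0.06, n = 5 lines, limma adjusted p = 0.00994).

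Among the mitotic kinases and their partners, 2 of 6 passed as higher and 0 as lower, beside 15.2% and 13.1% of all genes. TPX2, the spindle factor that activates Aurora A, had signals of 2485 in SkMel-1, 2847 in SkMel-5, 2812 in SkMel-28, 3843 in SkMel-19 and 2821 in Malme3M at 250 nM, against 1966, 2534, 1768, 2856 and 2151 in DMSO in the same lines. Every line was higher, SkMel-28 most, and only the highest DMSO lines reached into the range at 250 nM (log2 change 0.40, SE 0.08, n = 5 lines, limma adjusted p = 0.00606). NEK2, a centrosomal kinase that helps the centrosomes part, had signals of 796 in SkMel-1, 978 in SkMel-5, 1319.5 in SkMel-28, 1363 in SkMel-19 and 1219 in Malme3M at 250 nM, against 611, 931, 989.7, 963 and 841 in DMSO in the same lines. All 5 lines were higher, although SkMel-5 hardly moved, and the groups overlapped (log2 change 0.38, SE 0.09, n = 5 lines, limma adjusted p = 0.0133). PLK1, the polo-like kinase that activates CDC25C and shapes the spindle, had signals of 552 in SkMel-1, 701 in SkMel-5, 731 in SkMel-28, 1654 in SkMel-19 and 491 in Malme3M at 250 nM, against 695, 690.3, 933, 1292 and 495 in DMSO in the same lines. SkMel-19 was clearly higher with inhibitor and SkMel-1 and SkMel-28 were lower, so the mean change was close to 0 (log2 change -0.06, SE 0.11, n = 5 lines, limma adjusted p = 0.708). Aurora A (AURKA) and survivin (BIRC5, a subunit of the chromosomal passenger complex) had log2 changes of 0.14 (limma adjusted p = 0.0776) and 0.15 (limma adjusted p = 0.0993), and Aurora B (AURKB), the kinase of that complex, had -0.10 (limma adjusted p = 0.417).

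Of the 7 kinetochore and checkpoint genes, 4 passed as higher and 1 as lower, beside 15.2% and 13.1% of all genes. This was the group with the highest median log2 change, 0.31. CENPF, a large protein of the outer kinetochore, had signals of 1333 in SkMel-1, 1905 in SkMel-5, 2001 in SkMel-28, 3040.4 in SkMel-19 and 2533 in Malme3M at 250 nM, against 939.8, 1948, 1469, 1716 and 1732 in DMSO in the same lines. It was higher in 4 lines, most in SkMel-19, and almost level in SkMel-5, and the groups overlapped (log2 change 0.46, SE 0.11, n = 5 lines, limma adjusted p = 0.0155). On the log2 scale CENPE, the kinesin that carries chromosomes to the metaphase plate, was higher by 0.34 (SE 0.10, limma adjusted p = 0.0341). TTK, the kinase that starts the spindle checkpoint, rose on that scale by 0.33 (SE 0.09, limma adjusted p = 0.0284), and BUB1, a checkpoint kinase at the kinetochore, by 0.31 (SE 0.09, limma adjusted p = 0.0307). Fewer of this group passed when a line was left out, in fits with fewer arrays. Without SkMel-19, 0 of its 7 genes passed, beside 17.9% of all genes in either direction. CENPF alone passed without SkMel-28 or without Malme3M, beside 19.8% and 18.7% of all genes. With all 5 lines the share of all genes was 28.3%.

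MAD2L1, which forms the checkpoint complex that inhibits CDC20, fell while these neighbours rose. Its signals were 1356 in SkMel-1, 1034 in SkMel-5, 1671 in SkMel-28, 1279.7 in SkMel-19 and 1241 in Malme3M at 250 nM, against 1438, 1239, 2287, 1584 and 1637 in DMSO in the same lines. Each line was lower at 250 nM, SkMel-28 most and SkMel-1 least, and the groups overlapped (log2 change -0.30, SE 0.08, n = 5 lines, limma adjusted p = 0.0186). BUB1B, the BUBR1 checkpoint protein, had signals of 2210.3 in SkMel-1, 1361 in SkMel-5, 1279.9 in SkMel-28, 2463 in SkMel-19 and 2896 in Malme3M at 250 nM, against 2047, 1349.7, 1053, 1888 and 2614 in DMSO in the same lines. All 5 lines were higher, but by little in SkMel-5, and the change did not pass (log2 change 0.19, SE 0.07, n = 5 lines, limma adjusted p = 0.0864). CENPA, the histone variant that marks centromeres, split the lines. Its log2 change was 0.38 in SkMel-19 and 0.39 in Malme3M, but -0.08 in SkMel-1, 0.04 in SkMel-5 and -0.06 in SkMel-28, with a mean of 0.13 (limma adjusted p = 0.343).

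The motors and spindle and cytokinesis proteins held the largest rise of all. Here 4 of 9 passed as higher and 0 as lower, beside 15.2% and 13.1% of all genes. KIF20A, the kinesin that brings the chromosomal passenger complex and PLK1 to the central spindle, had signals of 1212 in SkMel-1, 1728 in SkMel-5, 1872 in SkMel-28, 2418 in SkMel-19 and 1279 in Malme3M at 250 nM, against 727, 1258, 1157, 1439 and 605 in DMSO in the same lines. Every line was higher, and Malme3M, lowest in DMSO, rose most. The groups overlapped, with SkMel-1 and Malme3M at 250 nM below SkMel-19 in DMSO (log2 change 0.74, SE 0.09, n = 5 lines, limma adjusted p = 0.000895). HMMR, a spindle-associated protein that binds hyaluronan outside the cell and TPX2 within it, had signals of 1945 in SkMel-1, 2143 in SkMel-5, 3276 in SkMel-28, 2362 in SkMel-19 and 1414 in Malme3M at 250 nM, against 1444, 1705, 2127, 1643 and 972 in DMSO in the same lines. All 5 lines were higher by similar amounts, and the groups overlapped (log2 change 0.49, SE 0.07, n = 5 lines, limma adjusted p = 0.0016).

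DLGAP5, a microtubule protein that stabilises kinetochore fibres, had signals of 769 in SkMel-1, 969 in SkMel-5, 1256 in SkMel-28, 2295 in SkMel-19 and 1576 in Malme3M at 250 nM, against 706, 859.7, 775, 1549 and 1159.5 in DMSO in the same lines. The lines fell into larger rises in SkMel-28, SkMel-19 and Malme3M and small ones in SkMel-1 and SkMel-5, with overlap between the groups (log2 change 0.40, SE 0.10, n = 5 lines, limma adjusted p = 0.0177). NUSAP1, which bundles spindle microtubules, was higher in every line, with a log2 change of 0.26 (SE 0.06, limma adjusted p = 0.0103). RACGAP1, the centralspindlin subunit that directs the cleavage furrow, had signals of 1949.9 in SkMel-1, 2067 in SkMel-5, 2148 in SkMel-28, 2540.1 in SkMel-19 and 3607 in Malme3M at 250 nM, against 1622, 2038, 1975, 2196 and 2302 in DMSO in the same lines. It was higher in all 5 lines, but only Malme3M moved far and the change did not pass (log2 change 0.25, SE 0.09, n = 5 lines, limma adjusted p = 0.0641). The other centralspindlin subunit, the kinesin KIF23, had a log2 change of -0.09 (limma adjusted p = 0.435). KIF11, the kinesin that pushes the spindle poles apart, had 0.10 (limma adjusted p = 0.328), KIF2C, which depolymerises microtubules at the centromere, had 0.09 (limma adjusted p = 0.425), and PRC1, which bundles the midzone, had 0.12 (limma adjusted p = 0.142).

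Genes of the exit from mitosis had no common direction, with a median log2 change of -0.03. Of the 4, 1 passed as higher and 0 as lower, beside 15.2% and 13.1% of all genes. ESPL1, the separase that cleaves cohesin at anaphase, had signals of 938 in SkMel-1, 1138 in SkMel-5, 1415 in SkMel-28, 2874 in SkMel-19 and 1969 in Malme3M at 250 nM, against 837, 982, 1004, 1936 and 1541 in DMSO in the same lines. Each line was higher, SkMel-19 and SkMel-28 most, and the groups overlapped (log2 change 0.36, SE 0.08, n = 5 lines, limma adjusted p = 0.0131). PTTG1, the securin that inhibits separase, had a log2 change of -0.02 (limma adjusted p = 0.82), and CDC20, the activator of the anaphase-promoting complex, had -0.04 (limma adjusted p = 0.736). UBE2C, the ubiquitin-conjugating enzyme of that complex, had signals of 3518 in SkMel-1, 3007 in SkMel-5, 2835 in SkMel-28, 3052 in SkMel-19 and 3389 in Malme3M at 250 nM, against 4151, 3016, 3068, 3494 and 3869.8 in DMSO in the same lines. All 5 lines were lower, SkMel-5 by almost nothing, and the change did not pass (log2 change -0.15, SE 0.06, n = 5 lines, limma adjusted p = 0.0798).

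The remaining 2 genes act on chromosomes as a whole. TOP2A, the topoisomerase that disentangles sister chromatids, had signals of 3443 in SkMel-1, 2552 in SkMel-5, 2995 in SkMel-28, 2774 in SkMel-19 and 2677 in Malme3M at 250 nM, against 2629.8, 2209.9, 2444, 2598 and 2509.8 in DMSO in the same lines. Every line was higher, SkMel-1 most, and the groups overlapped within a narrow range of levels (log2 change 0.21, SE 0.07, n = 5 lines, limma adjusted p = 0.0377). MKI67, which coats mitotic chromosomes and is the proliferation marker Ki-67, had signals of 992 in SkMel-1, 725 in SkMel-5, 954 in SkMel-28, 1707 in SkMel-19 and 822 in Malme3M at 250 nM, against 1128, 782, 769, 1167 and 835 in DMSO in the same lines. SkMel-19 and SkMel-28 were higher and the other 3 lines were lower, with no clear shift (log2 change 0.11, SE 0.11, n = 5 lines, limma adjusted p = 0.504).

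**Figure D2:**
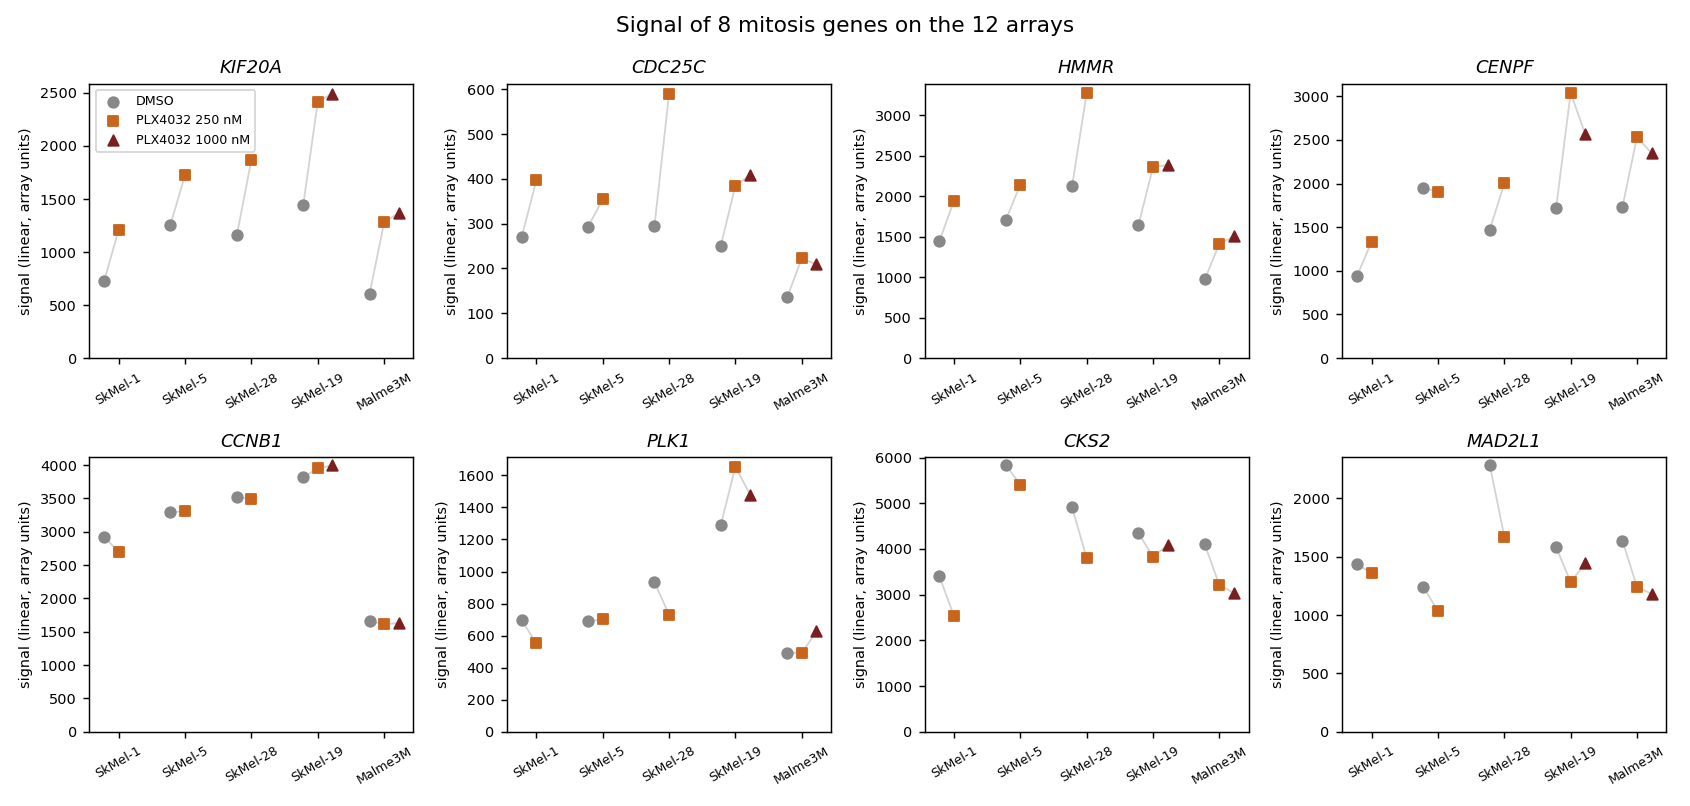
Signal (linear axis from 0) of 8 of the G2/M and mitosis genes on each of the 12 arrays, by cell line, with DMSO as circles, 250 nM PLX4032 as squares, 1000 nM as triangles and a thin line joining the arrays of 1 cell line. KIF20A, CDC25C and HMMR lie higher at 250 nM than in DMSO in each of the 5 lines, CKS2 and MAD2L1 lie lower, and CCNB1 and PLK1 have no common direction.

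The number of these calls fell when SkMel-19, SkMel-28 or Malme3M was left out, and so did the share of all genes called. Without SkMel-19, 5 of the 36 genes passed as higher and 1 as lower, beside 8.89% and 9.06% of all genes. Without SkMel-28 it was 9 and 1, beside 9.99% and 9.82%. Without Malme3M it was 10 and 1, beside 9.11% and 9.54%. KIF20A, CDC25C, HMMR, TPX2, NUSAP1 and CKS2 kept their calls whichever line was left out.

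Line values also differed in size, which was not tested over all 5 lines. The median log2 change of the 36 genes at 250 nM was 0.11 in SkMel-1, 0.06 in SkMel-5, 0.17 in SkMel-28, 0.25 in SkMel-19 and 0.15 in Malme3M, and 24, 27, 26, 31 and 24 of the 36 were higher in these lines. Of the 15 genes called higher, SkMel-5 gave the smallest change in 10 (66.7%) and the largest in 0, whereas SkMel-28 gave the largest in 8. Of the 1088 genes called higher over the whole array, SkMel-5 gave the smallest change in 37.8% and the largest in 6.8%. SkMel-28 gave the largest in 16.9% of those genes, and Malme3M, with 33.6%, gave it most often there but in 3 of the 15 here. SkMel-5 also had the smallest fall of the 9 measured ERK target genes, with a median log2 change of -2.01. The other lines had -2.25 to -3.22, and the part of this difference in the result was not tested.

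Promoter sequences were set beside these calls, since many of the 36 genes are known for CHR and CCAAT elements. RefSeq promoter windows (GRCh38.p14, 250 bases before to 50 after an annotated transcript start) were listed for 29 of the 36 genes, in 38 windows, and AURKA, BIRC5, FOXM1, RACGAP1, TPX2, TTK and UBE2C were not among them. The motifs were searched on both strands. The CHR was taken as TTTGAA or as the variant TTCGAA, and other forms of it were not searched. The CCAAT box was searched by the letters of its name, and an E2F site as TTTGGCGC, TTTCGCGC or TTTCCCGC. None of these motifs contains another, though matches may share bases. The 150 bases before the start are shown for the 3 largest rises with a listed promoter (KIF20A at chr5:138178962-138179111, plus strand, CDC25C at chr5:138331805-138331954, minus strand, HMMR at chr5:163460482-163460631, plus strand), a fall (CKS2 at chr9:89311045-89311194, plus strand) and 2 genes that did not pass (PLK1 at chr16:23678739-23678888, plus strand, CCNB1 at chr5:69167000-69167149, plus strand). Each is written 5′ to 3′ on the strand of its gene, ending at the base before the start, with CHR and CCAAT letters of either strand in capitals.
KIF20A: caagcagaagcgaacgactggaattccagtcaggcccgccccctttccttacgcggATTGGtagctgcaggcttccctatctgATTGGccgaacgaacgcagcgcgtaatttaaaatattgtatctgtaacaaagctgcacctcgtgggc
CDC25C: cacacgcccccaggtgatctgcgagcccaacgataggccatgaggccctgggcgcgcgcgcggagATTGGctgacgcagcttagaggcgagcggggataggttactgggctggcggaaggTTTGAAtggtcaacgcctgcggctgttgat
HMMR: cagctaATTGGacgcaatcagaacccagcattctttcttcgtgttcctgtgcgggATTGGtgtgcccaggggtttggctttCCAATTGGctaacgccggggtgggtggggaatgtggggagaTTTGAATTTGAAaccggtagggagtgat
CKS2: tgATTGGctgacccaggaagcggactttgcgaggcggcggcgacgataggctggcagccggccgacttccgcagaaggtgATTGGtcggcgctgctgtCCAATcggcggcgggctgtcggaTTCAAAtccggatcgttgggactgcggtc
PLK1: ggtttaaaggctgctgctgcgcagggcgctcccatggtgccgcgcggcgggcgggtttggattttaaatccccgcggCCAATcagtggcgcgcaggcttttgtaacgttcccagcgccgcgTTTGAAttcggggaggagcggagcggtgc
CCNB1: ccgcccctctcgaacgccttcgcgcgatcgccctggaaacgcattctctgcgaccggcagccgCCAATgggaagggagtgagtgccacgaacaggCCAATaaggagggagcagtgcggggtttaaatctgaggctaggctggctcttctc
The CHR stood 30 bases before the start in CDC25C, 28 and 22 in HMMR, 29 in CKS2 and 29 in PLK1. KIF20A and CCNB1 had CCAAT boxes and neither of the searched CHR forms in the window. Whether they hold a CHR of another form was not searched. CDC25C had more than 1 listed start, and the one shown was picked because its CHR lay before the start. Another of its starts had the CHR 44 bases after it, and the rest had no CHR or CCAAT letters in the window.

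A CHR within 50 bases of the start was present in 19 of the 38 windows (50%), beside 5.01% of the 35116 windows of all genes. A CCAAT box was present in 31 windows (81.6%, beside 34.6% of all), and both together, with the CHR within 50 bases, in 18 (47.4%, beside 2.04%). E2F letters were in 4 windows (10.5%, beside 2.74% of all). In the 47 windows of the G1/S and replication genes a CHR near the start was rarer, in 2.13%, and E2F letters were commoner, in 44.7%. A CCAAT box was in 57.4% of these windows, also above the share of all windows. A CHR near the start was found in 9 of 15 windows of the genes called higher (60%), in 8 of 21 windows of those that did not pass (38.1%) and in the windows of both CKS2 and MAD2L1, so the motif occurred on all sides of the 250 nM result. In MAD2L1, whose letters are not shown, the CHR lay 25 bases after the start. The 150 bases before that start held no CHR or CCAAT letters. A match of letters is a description and does not show binding.

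Other genes of mitosis were set beside these. Of 43 measured mitosis genes outside the 36, 8 passed as higher and 2 as lower at 250 nM, beside 15.2% and 13.1% of all genes. Their median log2 change was 0.09. ASPM, a spindle pole protein, rose on the log2 scale by 0.50 (limma adjusted p = 0.00578), KIF18A, a kinesin that limits microtubule length, by 0.43 (limma adjusted p = 0.01) and NDC80, a core kinetochore protein, by 0.34 (limma adjusted p = 0.0403). The 2 that passed as lower were LMNB1, lamin B1 of the nuclear envelope, with a log2 change of -0.36 (limma adjusted p = 0.0276), and TRIP13, the ATPase that takes the MAD2 checkpoint complex apart, with -0.33 (limma adjusted p = 0.0155), which is named after its value was seen. Of 10 measured subunits and partners of the anaphase-promoting complex, 0 passed as higher and 3 as lower, beside 15.2% and 13.1% of all genes. The log2 change was -0.40 for ANAPC10 (limma adjusted p = 0.0379), -0.40 for the ubiquitin-conjugating enzyme UBE2S (limma adjusted p = 0.0167) and -0.23 for CDC16 (limma adjusted p = 0.0338).

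Genes that restrain CDK1 gave 0 higher and 1 lower of 9 measured, beside 15.2% and 13.1% of all genes. The gene that passed was WEE1, the kinase that phosphorylates and inhibits CDK1, with a log2 change of -0.48 (limma adjusted p = 0.00659). Its partner kinase PKMYT1 had 0.08 (limma adjusted p = 0.541). The MuvB, DREAM and NF-Y complexes bind the CHR and CCAAT elements. Of 12 measured genes in a list of these complexes and related factors, 0 passed as higher and 2 as lower, beside 15.2% and 13.1% of all genes. One was E2F8, an E2F family repressor that is not a subunit of these complexes, at -0.62 (limma adjusted p = 0.0231). The other was the E2F partner TFDP1 at -0.32 (limma adjusted p = 0.033). MYBL2, which encodes B-MYB, had -0.14 (limma adjusted p = 0.295).

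The G1/S and replication genes lay on the other side of 0. Of 43 measured, 0 passed as higher and 20 as lower, beside 15.2% and 13.1% of all genes, with a median log2 change of -0.24. CCND1, the cyclin D1 gene and an ERK target, fell by 3.09 on the log2 scale (limma adjusted p = 0.000349). CDC25A, the phosphatase of the G1/S transition, had a log2 change of -1.64 (limma adjusted p = 0.000153), the replication licensing factor CDC6 had -1.01 (limma adjusted p = 0.000812) and CCNE2, cyclin E2, had -0.99 (limma adjusted p = 0.00673). All 9 measured ERK target genes passed as lower, with a median of -2.61. In a list of 10 reference genes, 1 passed as higher and 1 as lower, SDHA at 0.33 (limma adjusted p = 0.00796) and HPRT1 at -0.25 (limma adjusted p = 0.0262), and the median log2 change was 0.08.

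**Figure D3:**
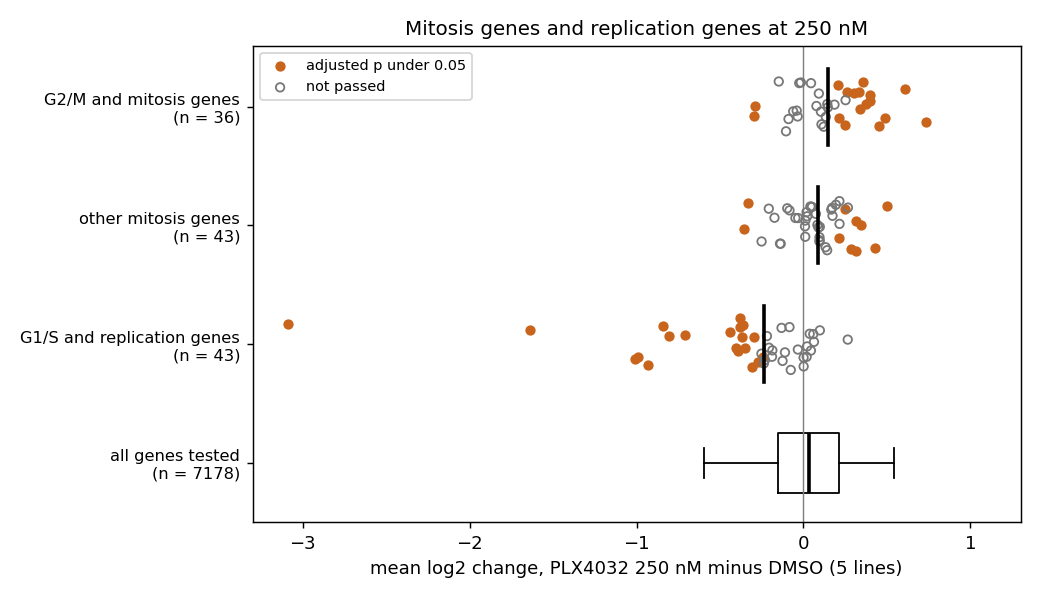
Mean log2 change at 250 nM PLX4032 against DMSO over 5 lines, 1 point per gene, for the 36 G2/M and mitosis genes, 43 other mitosis genes and 43 G1/S and replication genes, with a bar at each median, filled points for genes past the limma test, and a box plot of all 7178 genes (box from lower to upper quartile, bar at the median, whiskers at the 5th and 95th percentiles). The median was 0.14, 0.09 and -0.24 for the lists in that order, beside 0.03 for all genes tested.

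At 1000 nM, tested in SkMel-19 and Malme3M only, 8 of the 36 genes (22.2%) passed as higher than DMSO and 0 as lower, beside 5.29% higher and 5.89% lower (11.2% in all) of the genes tested, and 19 of the 36 had an unadjusted limma p under 0.05, beside 32.2% of all genes. KIF20A was again the largest, with a log2 change of 0.97 (SE 0.12, limma adjusted p = 0.0101). Next came CDC25C with 0.63 (SE 0.14, limma adjusted p = 0.0409), HMMR with 0.58 (SE 0.09, limma adjusted p = 0.0167) and CENPF with 0.51 (SE 0.10, limma adjusted p = 0.0298). The other 4 were CENPA at 0.49 (SE 0.11, limma adjusted p = 0.0419), TTK at 0.48 (SE 0.11, limma adjusted p = 0.0468), DLGAP5 at 0.46 (SE 0.09, limma adjusted p = 0.0322) and TPX2 at 0.44 (SE 0.07, limma adjusted p = 0.0203). All but CENPA also passed at 250 nM in the 5 lines. CENPA had signals in SkMel-19 of 778 in DMSO, 1012 at 250 nM and 1047 at 1000 nM, and in Malme3M of 579 in DMSO, 764 at 250 nM and 863 at 1000 nM. HMMR had signals in SkMel-19 of 1643 in DMSO, 2362 at 250 nM and 2385 at 1000 nM, and in Malme3M of 972 in DMSO, 1414 at 250 nM and 1502 at 1000 nM. Both genes were above DMSO at either dose in both lines, with the step from DMSO to 250 nM wider than the step between doses. These values share their DMSO arrays with the 250 nM values of the same lines, where 10 of the 36 passed as higher (beside 5.98% of all genes) and 0 as lower (beside 5.36%, or 11.3% in either direction). By direction alone, 24 of the 36 genes were above DMSO in both lines at 1000 nM, beside 41.1% of all genes, and 5 were below in both, beside 31.8%. In a fit of all 12 arrays 5 of the 36 passed at 1000 nM, beside 13.6% of all genes. With SkMel-19 left out of it 0 of the 36 passed, beside 1.59% of all genes, and with Malme3M left out 0 passed, beside 0.641%. Either omission leaves 1 array at 1000 nM, which is then assumed to vary like the arrays of the other groups, so these counts do not show how stable the calls are.

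No difference between the doses passed. Between 1000 nM and 250 nM in the same lines, limma called 0 of the 36 genes and 0 of all 7178, which is 0% of the genes tested, with 0 of the 36 and 75 of the 7178 at an unadjusted p under 0.05. The difference of log2 values ran from -0.20 to 0.17 over the 36 genes, with standard errors of 0.07 to 0.15, so that differences of this order could not be detected. The sign of that difference was not the same in SkMel-19 and Malme3M for 22 of the 36 genes.

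The 3 genes with the smallest p between doses behaved unlike each other. UBE2C had signals in SkMel-19 of 3494 in DMSO, 3052 at 250 nM and 3660.2 at 1000 nM, and in Malme3M of 3869.8 in DMSO, 3389 at 250 nM and 3561 at 1000 nM. It was lowest at 250 nM in both lines (log2 difference 0.17, SE 0.08, limma adjusted p = 0.999). CENPF had signals in SkMel-19 of 1716 in DMSO, 3040.4 at 250 nM and 2565 at 1000 nM, and in Malme3M of 1732 in DMSO, 2533 at 250 nM and 2347 at 1000 nM, highest at 250 nM in both (log2 difference -0.18, SE 0.10, limma adjusted p = 0.999). RACGAP1 had signals in SkMel-19 of 2196 in DMSO, 2540.1 at 250 nM and 2583 at 1000 nM, and in Malme3M of 2302 in DMSO, 3607 at 250 nM and 2694 at 1000 nM. Only the Malme3M array at 250 nM stood apart (log2 difference -0.20, SE 0.13, limma adjusted p = 0.999).

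The response of these genes was also compared between Malme3M and SkMel-19, with the arrays at 250 nM and 1000 nM taken as the treated arrays of each line. With 1 DMSO array in each line, the error in this test comes from the gap between the doses within a line alone, and neither the DMSO arm nor the line has a replicate. The test called 0 of the 36 genes, beside 2.91% of all genes (0.933% higher and 1.98% lower in Malme3M), and 3 of the 36 had an unadjusted limma p under 0.05, beside 18.5% of all genes. KIF20A had the wider step in Malme3M, with signals of 605 in DMSO, 1279 at 250 nM and 1368 at 1000 nM, than in SkMel-19, with 1439 in DMSO, 2418 at 250 nM and 2494 at 1000 nM (difference in log2 change 0.35, SE 0.13, limma adjusted p = 0.214). CDC25B was lower with inhibitor in Malme3M, with signals of 2629 in DMSO, 2050.2 at 250 nM and 2204 at 1000 nM, and level in SkMel-19, with 4153 in DMSO, 4260.2 at 250 nM and 4069.7 at 1000 nM (difference in log2 change -0.31, SE 0.12, limma adjusted p = 0.224). BUB1B was nearly level in Malme3M, with signals of 2614 in DMSO, 2896 at 250 nM and 2838 at 1000 nM, and higher with inhibitor in SkMel-19, with 1888 in DMSO, 2463 at 250 nM and 2512 at 1000 nM (difference in log2 change -0.26, SE 0.11, limma adjusted p = 0.256). These 3 differences did not pass. Over the 36 genes the difference between the lines ran from -0.40 to 0.35 on the log2 scale, with standard errors of 0.10 to 0.22.

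The level of these genes depended on the cell line. Level differed among the 5 lines in 35 of the 36 genes (97.2%, limma F-test, adjusted p under 0.05 over all genes), beside 90.2% of all genes, and TOP2A was the gene that did not pass (adjusted p = 0.0952). The DMSO and 250 nM arrays of a line were the replicates of that test, which had no repeat cultures. In DMSO the highest line exceeded the lowest by a median of 2.16-fold over the 36 genes, from 1.19-fold for TOP2A to 6.79-fold for CDC20, and 21 genes ranged over more than 2-fold. These ranges were not computed over all genes. CDC20 signals in DMSO were 517 in SkMel-1, 2037 in SkMel-5, 2305 in SkMel-28, 3506 in SkMel-19 and 1199.8 in Malme3M, with SkMel-1 far below SkMel-19. FOXM1 ranged 4.58-fold, highest in SkMel-1, and CDC25B 4.90-fold, lowest in SkMel-1.

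SkMel-19 carried the highest DMSO signal of the 5 lines in 17 of the 36 genes and the lowest in 0. SkMel-1 was lowest in 12 genes, and SkMel-5, SkMel-28 and Malme3M in 8 each. Relative to the mean of the 5 lines in DMSO, the median log2 level of the 36 genes was 0.28 in SkMel-19, 0.03 in Malme3M, -0.02 in SkMel-28, -0.12 in SkMel-1 and -0.15 in SkMel-5. With 1 array per line in DMSO, this order has no error of its own, and the lower 4 values lie close to each other. The same counts were not made over all genes, so the place of SkMel-19 cannot be called particular to the 36 genes.

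**Figure D4:**
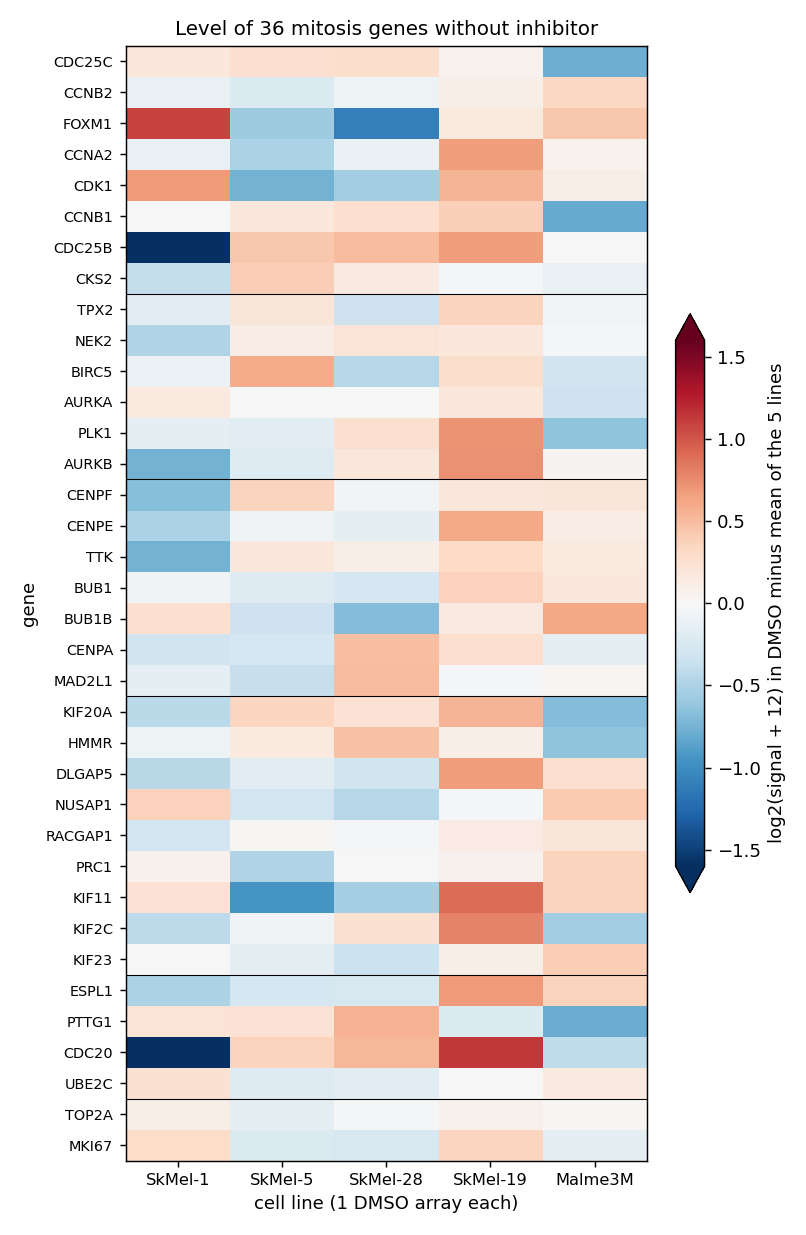
Heat map of the log2 level of each of the 36 genes (down the page, by role) in DMSO in each cell line (1 array each), minus the mean of the 5 lines for that gene, red above and blue below. SkMel-19 is above the mean for 32 of the 36 genes, a count not made over all genes, and CDC20 and CDC25B are far below it in SkMel-1.

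Probe sets of the same gene were compared where there were several. The 36 genes had 60 probe sets, and 14 genes had more than 1. Of the 24 probe sets not used above, 18 passed the filter on signal, and the mean change at 250 nM of 0 of them had the opposite sign to the probe set used. For the 8 called genes with other probe sets over the filter, all 8 of those were higher in mean too. Single lines agreed less well, and the line values above are those of the probe set used. ESPL1 in SkMel-1 had a log2 change of -0.17 on the other probe set, in place of 0.16. CDK1 in SkMel-5 had 0.14 and -0.09 on the others, in place of -0.24, and MKI67 was higher in 3 or 4 lines in place of 2. NEK2, HMMR, TOP2A and NUSAP1 were higher in all 5 lines on either probe set. Sizes differed for CENPF, whose other probe set over the filter had a mean log2 change of 0.24 (SD 0.33, n = 5 lines) in place of 0.46, and for BUB1, with 0.15 (SD 0.32, n = 5 lines) in place of 0.31. Neither passed when all probe sets of the gene were averaged (log2 change 0.20 for CENPF and 0.13 for BUB1, limma adjusted p = 0.325 and 0.48). Those averages included probe sets under the filter, with mean signals of 16.1 for CENPF and from 5.47 to 26.8 for BUB1. CENPA, PTTG1 and FOXM1 were measured by probe sets of a type whose probes can also bind similar transcripts, so their values are less certain.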

How the data were processed

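Per the labels, total RNA of each culture was labelled with biotin and hybridised to 1 array. The deposited intensity values are linear and were made by the authors in GCOS, as the submitters' processing notes state without a version. The sources used here do not say how probes were summarised. Array means, trimmed at both ends, are all 500.1, so the intensities share 1 scale as deposited and were not normalised again.

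From these intensities log2(value + 12) was computed, 12 being their 20th percentile. Of 22215 probe sets other than controls, 19064 had 1 gene symbol. They stand for 11963 genes, and for each the brightest probe set on average was kept. A gene was tested if its mean log2 value was at least 6.61, the 40th percentile, which left 7178. Tests used limma 3.58.1 in R 4.3.3 with a trend in the prior variance, the cell line as a block and Benjamini-Hochberg adjustment at 0.05. The 250 nM comparison and the test of level among lines drew on 10 arrays (4 residual degrees of freedom) and the others on 6 arrays (2 residual degrees of freedom), those of both lines treated at 1000 nM. The procedure was run on simulated data in which a changed gene moved by the same amount in every treated array. Responses that differ between lines or doses were not simulated.

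The pairing comes from the cell line in the labels: once group means were subtracted, same-line arrays had correlations of 0.898 to 0.931, and arrays of unlike lines -0.135 or less. The members, the gene lists and the rule for naming genes were chosen with earlier results of these data known. By that rule every member was named, array by array for the 8 largest changes, the falls that passed, 6 genes named whatever their result and the 3 smallest p between doses and between lines, and of each other list up to 4 genes that passed, taken by size of change. DUSP6 and CCND1 were named as signs that the inhibitor acted. Genes given beyond the rule, chosen after their values were seen, were TRIP13, PKMYT1 and MYBL2 and, with line values, CDC20 and CENPA.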

Additional observations from a re-analysis of the deposited data

Results flagged for a closer look

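Signals of the 36 genes were searched for an array far from the other 4 of its dose, over 108 groups of 5 values, by the gap to the nearest array as a share of the range. Chance flags about 1 in 20 such groups, and 5 were found. TTK in SkMel-1 was low at 250 nM, with a signal of 368.7 against 785.9 to 1014.6 in the other lines, and low in DMSO, with 347.6 against 641 to 743.6. CDC25B in SkMel-1 was low in DMSO, with 847.2 against 2629 to 4153 in the other lines. CDC25C in Malme3M was low in DMSO, with 135.4 against 251.1 to 295.3. AURKA in Malme3M was low at 250 nM, with 2348 against 3183.6 to 3514. All 5 are levels of a line, and none of the 36 changes between 250 nM and DMSO stood apart in this way.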

How the results depend on the processing

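No result reversed among those called, and the median log2 change of the 36 genes stayed between 0.12 and 0.18 at 250 nM and between 0.18 and 0.22 at 1000 nM under every setting tried. Between doses 0 genes were called throughout. Without the replicate block, that is with the pairing by cell line left out, limma called 13 genes at 250 nM with 0 of the 36 higher and 0 lower, and 0 genes and 0 of the 36 at 1000 nM. Leaving out 1 line at a time gave 1288 to 1836 genes at 250 nM, with 5 to 15 of the 36 higher and 1 to 2 lower, and 46 to 1021 genes at 1000 nM, with 0 to 7 of the 36 higher. The low end at 1000 nM, 114 genes without SkMel-19 and 46 without Malme3M with 0 of the 36 in both, comes from fits with 1 array at that dose, assumed to vary like the other groups. Leaving out a line with no 1000 nM array gave 849 to 1021 genes and 5 to 7 of the 36. At 1000 nM, raising signals under the filter level to it gave 182 genes and 2 of the 36, no filter gave 445 and 5, no trend in the prior variance gave 530 and 3, and a fit of all 12 arrays gave 5 of the 36. The cause was not tested. Centring arrays on their medians moved the share of higher calls at 250 nM to 45.0%, against 53.6% as deposited. FOXM1 and TOP2A passed at 250 nM in 8 of 17 alternative settings each. KIF20A, HMMR, TPX2, NUSAP1 and CKS2 passed in 16 of 17, the exception being the fit without the block, as it was for CDC25C, which passed in 15 of 16. CDC25C has no value under a filter at the 60th percentile, which it does not reach. With 4 or 2 residual degrees of freedom, the number of arrays limits the precision.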
